A study of Mus musculus with 6 samples.

Results

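The proteasome subunit genes were described in macrophages of mouse white adipose tissue, as the 43 protein-coding genes of the deposited table whose symbol starts with Psma, Psmb, Psmc, Psmd or Psme followed by a digit, with Psmb8 and Psmb9 left out. The table held 57180 genes in all. By role, 8 of the 43 belong to the alpha ring, 9 to the beta ring, 6 are ATPases of the base, 3 are other base subunits, 8 belong to the lid, 3 are chaperones of base assembly and 5 are activators. Psmc3ip matches by its symbol alone, since it is known as a recombination factor and not as a subunit.

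The proteasome is the protease that degrades proteins tagged with ubiquitin in the cytosol and nucleus. Its barrel-shaped core stacks alpha rings, which gate the entrance, on beta rings, whose subunits Psmb5, Psmb6 and Psmb7 cut the chain. The regulatory particle caps the barrel: ATPases in its base unfold the substrate, and its lid removes the ubiquitin chain. In cells of the immune system, and under interferon, the inducible subunits Psmb8, Psmb9 and Psmb10 take the places of Psmb5, Psmb6 and Psmb7, and the PA28 activator, built from Psme1 and Psme2, favours the peptides shown on MHC class I.

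F4/80+ CD11b+ cells were sorted from the fat of wild-type (WT) mice, and RNA was sequenced in 3 libraries per group. The HFD group had a high-fat diet alone. The HFD+MGIG group had the same diet and magnesium isoglycyrrhizinate, a salt of a liquorice compound used to protect the liver, and the study asked how it acts on these macrophages. All 6 libraries therefore share the high-fat diet, and no lean mice, drug dose, time, sex or age enters here. The labels do not say whether the libraries of a group came from separate animals or pools, so p-values measure only how far these libraries scatter, and that scatter may be technical.

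HFD libraries held 14437605 to 16740417 estimated counts and HFD+MGIG libraries 2214456 to 4904302. Genes that macrophages are not known to use (1596 olfactory, vomeronasal and taste receptor, keratin-associated and beta-defensin genes) took 0.0624% to 0.280% of the counts in HFD, against 2.93%, 6.42% and 3.14% in HFD+MGIG 1, 2 and 3. Protein-coding genes took 95.0% to 96.1% in HFD, against 82.7%, 62.4% and 78.9% in HFD+MGIG. HFD+MGIG 2 was the shallowest library and stood apart, with a correlation across genes of 0.547 to 0.614 to the HFD libraries in log2 CPM. All 10 macrophage markers were detected, summing to 14890 to 17010 CPM (counts scaled by the library's total) in HFD, against 6522 to 16730 CPM in HFD+MGIG, and edgeR called 0 of the 10 in either direction (2 at an unadjusted p under 0.05), where DESeq2 called 3 lower and limma voom 5. Rescaled to the background-limited genes described next, the same 10 markers gave 0 calls by edgeR (4 at an unadjusted p under 0.05), while DESeq2 called 1 higher and limma voom 5 higher, and both called 0 lower. Endothelial markers summed to 1866 to 2208 CPM in HFD, against 332 to 696 CPM in HFD+MGIG, and 8 of 8 were called lower. Fibroblast markers, 4 of 6 called lower, summed to 2483 to 3787 CPM in HFD, against 1229 to 1842 CPM in HFD+MGIG. Adipocyte markers, 5 of 6 called lower, summed to 3519 to 5589 CPM and to 1503 to 2149 CPM, and those of pericytes and smooth muscle, 4 of 5 called lower, to 1007 to 1497 CPM and to 357 to 634.5 CPM. T and B cell markers, 2 of 6 called higher, summed to 12.7 to 42.5 CPM in HFD, against 35.4 to 153 CPM in HFD+MGIG. Neutrophil markers (0 of 4 called) summed to 131 to 205 CPM and to 93.9 to 229.9 CPM, and dendritic cell markers (1 lower and 1 higher of 4) to 130.3 to 204 CPM and to 81.5 to 157.6 CPM. No marker was at 0 in every library, and the part of these cells in the results was not tested. In bulk RNA, fewer cells of a type and less RNA per cell cannot be told apart.

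Every fold change is HFD+MGIG over HFD on the log2 scale, and is read on 2 scales because counts on silent genes moved with the groups. The first fit used all 23055 genes that passed the count filter. The second used 2604 background-limited genes, which are protein-coding genes with a limited bound on such background: the 90th percentile of the silent genes' counts per exon length, applied to the gene, came to at most 0.25 of its mean level over the 6 libraries. Their libraries were rescaled on these genes alone, and levels on that scale are called set-scaled CPM. All 43 genes passed the count filter and 34 belonged to the background-limited genes. The 9 outside were Psma8, Psmb11, Psmc3ip, Psmd3, Psmd5, Psmd9, Psmd13, Psme2b and Psme4. The limit held for that mean and not within each group: among the 34 genes the bound over the level had a median of 0.00739 and a maximum of 0.0163 in HFD, against a median of 0.263 in HFD+MGIG, from 0.111 for Psmc2 to 0.626 for Psmd1, and it was above 0.25 for 19. In HFD+MGIG 2 the bound was above the level itself for 6 of the 34: Psmb7, Psmb10, Psmc6, Psmd1, Psmd6 and Psmd10.

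Most subunit genes lay lower in HFD+MGIG over all filtered genes, and on the scale of the background-limited genes they gave no call but that of Psmc2. Over all filtered genes 39 of 43 fold changes were below 0, with a median of -0.81 against 0.38 for all genes. By edgeR's quasi-likelihood test at an adjusted p of 0.05, 16 genes fell and 1, Psmc2, rose. Psmb11 was called higher too, but it passed the filter only through HFD+MGIG and lay below the background bound in every library. Psme4, among the 16 that fell, lay below the bound in every HFD+MGIG library. Of all filtered genes 17.8% were called lower and 42.9% higher. The background-limited genes, read from the same fit, had a median of -0.91, with 43% called lower and 2.11% higher, and of their 34 proteasome genes 13 were called lower and 1 higher. On the scale of the background-limited genes 0 of 34 fell and 1, Psmc2, rose, where 6.26% of these genes were called lower and 4.49% higher. DESeq2 and limma voom also called 0 lower and 1 higher, where DESeq2 called 8.76% of the set lower and 7.22% higher and limma voom 9.33% and 8.49%. The unadjusted edgeR p was under 0.05 for 4 of the 34. The median was 0.13 for the 34 and 0.03 for all 2604. That of the 34 was -0.01 once trends with GC content and the length of the longest transcript were removed. Leaving Psmc2 aside, the 33 others spanned -0.39 to 0.51 with an SD of 0.187, while the SD over the 2604 genes was 0.794.

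The count of 16 rested on single libraries and on the method. It was 4, 4 and 2 without HFD 1, 2 and 3, and 28, 31 and 1 without HFD+MGIG 1, 2 and 3, while DESeq2 called 28 lower (20.2% of all genes) and limma voom 37 (29.9%). With protein-coding genes alone in the fit it was 2. In CPM the HFD+MGIG libraries lay below all HFD libraries for 29 of the 43 genes and above them for 2, as for 23.7% and 48.9% of all filtered genes.

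**Figure D1:**
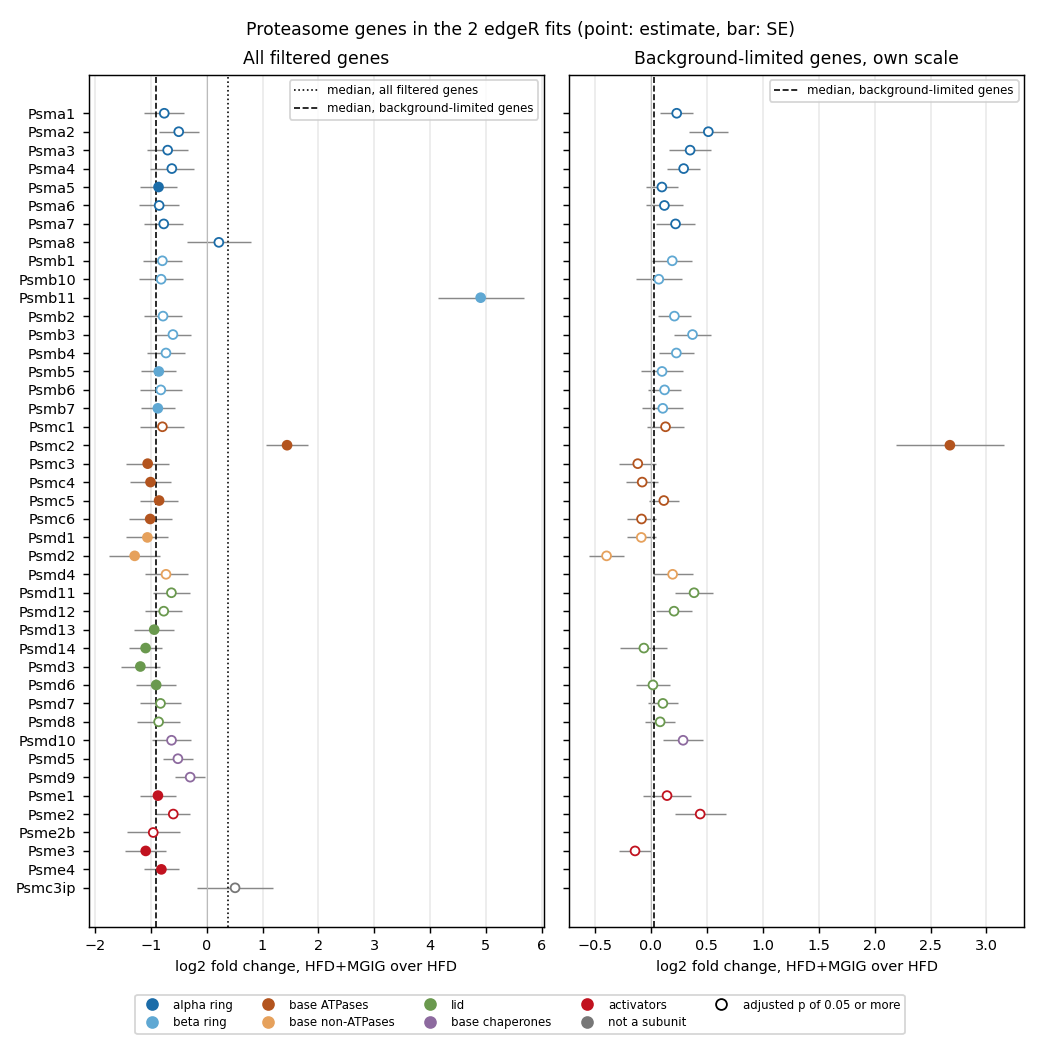
Log2 fold changes, HFD+MGIG over HFD, of the proteasome genes by edgeR, with bars for the standard error, over all filtered genes (left, 43 genes) and over the background-limited genes on their own scale (right, 34 genes); filled points have an adjusted p under 0.05. On the left the points gather around -0.81 with Psmc2 and Psmb11 far to the right, and on the right they gather around 0.13 with Psmc2 alone apart.

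As a share of all counts the 43 genes took 0.360%, 0.318% and 0.314% in the HFD libraries, against 0.285%, 0.203% and 0.261% in HFD+MGIG 1, 2 and 3. Each HFD+MGIG library was lower than each HFD library. As a share of protein-coding counts the groups overlapped, at 0.347% ± 0.0278 in HFD, against 0.334% ± 0.00975 in HFD+MGIG (SD, n = 3 libraries). The 34 background-limited genes took 0.485% ± 0.0439 of the counts of that set in HFD, against 0.569% ± 0.0971 in HFD+MGIG. Without Psmc2 these were 0.472% ± 0.0434 and 0.489% ± 0.0455, so the groups differed by less than the spread between libraries.

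**Figure D2:**
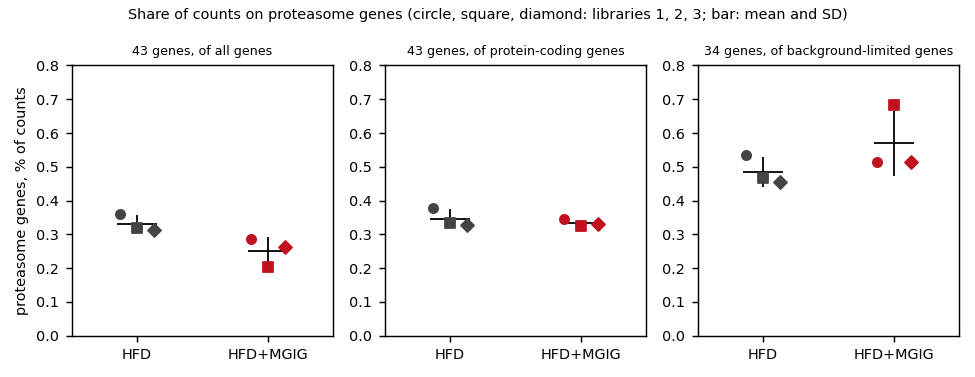
Share of library counts on proteasome genes in percent, for the 43 genes of all genes and of protein-coding genes and for the 34 background-limited ones of their set; points are single libraries, and bars give the mean and SD of the 3 libraries of a group. HFD+MGIG was lower against all genes (0.25% against 0.331%), overlapped HFD against protein-coding genes and was higher on average against background-limited genes.

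Levels within HFD ran over a wide range when counts were set per kilobase of merged exon length. The highest were Psma6, an alpha ring subunit, with 84.6 ± 13 CPM per kb (SD, n = 3), and Psmb2, a structural beta subunit, with 79.0 ± 5.04. These 2 overlapped, and both lay above every library of the next genes in order, the base ATPase Psmc5 (55.5 ± 3.00), Psma5 (54.0 ± 5.72) and the catalytic Psmb5 (50.1 ± 9.41), which did not differ beyond their spread. At the low end stood Psmb11, the beta subunit of the thymus, with 0.0396 ± 0.0249, Psmc3ip with 0.805 ± 0.555, and Psma8, the alpha subunit of the testis, with 0.887 ± 0.140. Of the remaining genes the base chaperone Psmd9 (2.98 ± 0.414) and the activator Psme4 (4.60 ± 0.177) were lowest. The merged length counts retained introns, so it lowers the level of genes with long non-coding transcripts such as Psmc2.

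**Figure D3:**
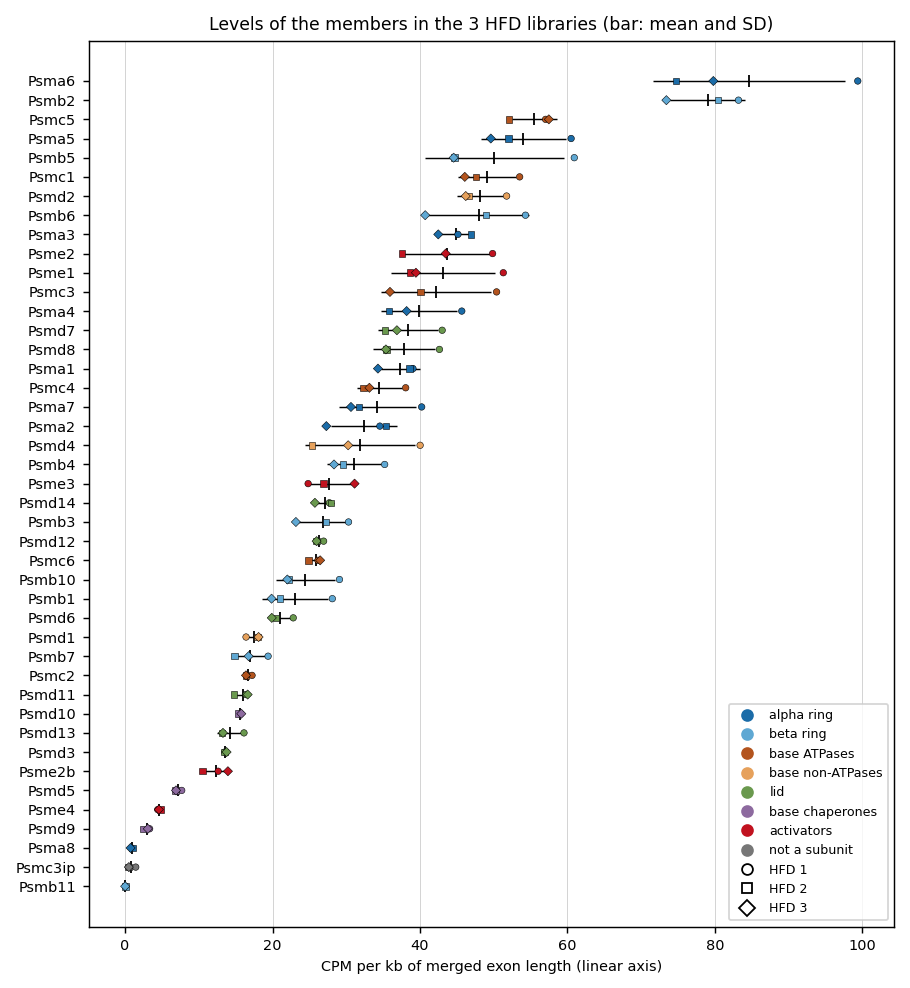
Level of each proteasome gene in the 3 HFD libraries, in CPM per kilobase of merged exon length, with the mean and SD as bars and colours for the role. Psma6 and Psmb2 stand highest at 84.6 and 79.0, and Psma8, Psmc3ip and Psmb11 lie near 0.

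In the alpha ring 1 of 8 genes, Psma5, fell over all filtered genes and 0 rose. Psma5 stood at 79.9, 68.7 and 65.5 CPM in HFD, against 56.4, 33.9 and 52.4 CPM in HFD+MGIG, with no overlap. The fold change was -0.86 (SE 0.338, adjusted p = 0.0422 by edgeR), and the call was lost without HFD 1, 2 or 3 or HFD+MGIG 3 (adjusted p from 0.0861 to 0.115). Psma6 stood at 122.6, 92.2 and 98.5 CPM in HFD, against 88.0, 54.2 and 68.3 CPM in HFD+MGIG, and its -0.85 (SE 0.356) did not pass (adjusted p = 0.0541). On the background-limited scale Psma5 and Psma6 had fold changes of 0.10 and 0.12, and all 7 genes tested there lay above 0 without passing. Over all filtered genes DESeq2 called 5 and limma voom 6 of the 8 lower.

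Psma2 had the largest value of the ring on that scale. Its set-scaled CPM was 193, 200 and 154 in HFD, against 228, 319.7 and 242 in HFD+MGIG, so the groups did not overlap, with 0.51 (SE 0.175, adjusted p = 0.101 by edgeR). Of the 3624 words (runs of 50 bases) of Psma2, the pseudogene Gm6474 shares 100 on the same strand, the most of any gene. Gm6474 stood at 0.12, 0 and 0 CPM in HFD, against 4.10, 9.48 and 2.85 CPM in HFD+MGIG. Transcript Psma2-202 shares 55 bases, 6 of the words (0.17%), with the vomeronasal receptor gene Vmn2r53 on the opposite strand. That receptor gene stood at 63.6, 358 and 147 CPM in HFD, against 3010, 6513 and 3127 CPM in HFD+MGIG. The stretch is shown because the receptor's level moved with the group, and all of it is shared, so that no letters are in capitals (mm10, chr13:14673637-14673691, + strand):
Psma2-202 shared stretch: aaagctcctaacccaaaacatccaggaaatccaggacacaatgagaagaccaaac
Whether reads of this stretch were counted for Psma2 was not tested.

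In the beta ring Psmb5 and Psmb7 fell over all filtered genes, out of 9. Psmb5, the chymotrypsin-like subunit, stood at 54.8, 40.2 and 40.1 CPM in HFD, against 35.9, 22.6 and 31.4 CPM in HFD+MGIG. Psmb7, the trypsin-like subunit, stood at 66.4, 50.8 and 57.3 CPM in HFD, against 41.2, 30.3 and 44.2 CPM in HFD+MGIG. Neither gene's groups overlapped, and HFD+MGIG 2 was lowest in both. Fold changes were -0.86 (SE 0.312, adjusted p = 0.031 by edgeR) for Psmb5 and -0.88 (SE 0.308, adjusted p = 0.0272 by edgeR) for Psmb7. Both calls were lost without HFD 1, 2 or 3 or HFD+MGIG 3, with adjusted p from 0.0637 to 0.105 and from 0.0603 to 0.0769.

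Psmb6, the caspase-like subunit, stood at 101.7, 91.6 and 76.2 CPM in HFD, against 76.4, 39.7 and 67.9 CPM in HFD+MGIG, where HFD 3 and HFD+MGIG 1 overlapped. Its -0.82 (SE 0.373) did not pass by edgeR (adjusted p = 0.0714). Psmb10, the inducible counterpart of Psmb7, stood at 49.6, 38.0 and 37.5 CPM in HFD, against 37.8, 13.1 and 32.8 CPM in HFD+MGIG, with -0.82 (SE 0.391, adjusted p = 0.085 by edgeR). On the background-limited scale Psmb5, Psmb6, Psmb7 and Psmb10 had 0.10, 0.12, 0.11 and 0.07, and none passed. The largest there was Psmb3, a structural subunit, with 0.37 (SE 0.163, unadjusted p = 0.0486, adjusted p = 0.194 by edgeR).

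The balance of inducible and constitutive catalytic subunits was read as ratios of counts within a library. Psmb10 over Psmb7 was 0.747, 0.747 and 0.654 in HFD, against 0.918, 0.433 and 0.742 in HFD+MGIG. Psmb8 over Psmb5 was 2.38, 2.82 and 3.04 in HFD, against 2.99, 2.16 and 3.77 in HFD+MGIG. Psmb9 over Psmb6 was 0.427, 0.404 and 0.487 in HFD, against 0.533, 0.398 and 0.565 in HFD+MGIG. The groups overlapped in all 3, and 2-sided exact permutation tests gave p = 0.8, 0.9 and 0.4 (0.9, 0.9 and 0.8 adjusted over 4 ratios), where 3 libraries against 3 cannot go below 0.1. Psmb8 and Psmb9 themselves had -0.68 (SE 0.419) and -0.56 (SE 0.375) over all filtered genes and did not pass (adjusted p = 0.168 and 0.204 by edgeR).

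Windows before the starts of Psmb5 and Psmb6 are shown because each holds the antioxidant response element core TGACNNNGC, the class of site bound by Nfe2l1. The sequences come from RefSeq (GRCm38.p6, mm10), the capitals mark the core, and the windows lie at chr14:54618016-54618065 (- strand) and chr11:70525297-70525356 (+ strand):
Psmb5 promoter: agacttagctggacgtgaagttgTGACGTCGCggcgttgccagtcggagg
Psmb6 promoter: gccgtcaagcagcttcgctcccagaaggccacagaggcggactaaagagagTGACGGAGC
The core starts 47 bases before the start of Psmb5 and 9 bases before that of Psmb6.

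Among the 6 base ATPases 4 fell over all filtered genes and 1 rose. Psmc3 stood at 131.4, 104.4 and 93.7 CPM in HFD, against 84.8, 42.9 and 62.8 CPM in HFD+MGIG, without overlap. It fell by 1.06 on the log2 scale (SE 0.384, adjusted p = 0.031 by edgeR), a call lost without HFD 1, 2 or 3 or HFD+MGIG 3 (adjusted p from 0.0595 to 0.122). Psmc4, Psmc5 and Psmc6 fell with -1.01, -0.85 and -1.01, and Psmc1 had -0.79 without passing (adjusted p = 0.0953 by edgeR). On the background-limited scale Psmc1 and Psmc3 to Psmc6 lay between -0.12 and 0.13, and none passed.

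Psmc2 (ENSMUSG00000028932, mm10 chr5:21785283-21803787, + strand), which encodes the ATPase known as Rpt1, went the other way. Its level was 86.6, 82.6 and 82.5 CPM in HFD, against 199, 388 and 286 CPM in HFD+MGIG. All HFD+MGIG libraries lay above all HFD libraries, HFD+MGIG 2 was highest, and the HFD libraries differed little among themselves. The fold change was 1.44 (SE 0.377, adjusted p = 0.0057 by edgeR) over all filtered genes and 2.67 (SE 0.481, adjusted p = 0.0211 by edgeR) on the background-limited scale, where it ranked 45 of 2604 from the highest. The second call was lost without HFD 1, 2 or 3 (adjusted p = 0.0768, 0.0971 and 0.103) and with the 90th percentile of the background subtracted (0.141), and the first without HFD 3 (0.0531), while the sign stayed in all of these. Psmc2 over the sum of the other 5 base ATPases was 0.177, 0.194 and 0.193 in HFD, against 0.541, 2.15 and 0.985 in HFD+MGIG, a ratio chosen after its values were seen.

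The 6 ATPases form a single ring in the assembled base, with each of them present in equal number. GENCODE M21 lists a coding transcript, Psmc2-201, of 1785 bases in 13 exons and a non-coding retained-intron transcript, Psmc2-202, of 3466 bases. Of the 50-base words of its transcripts the coding one shares 0 with transcripts of other genes, and the retained-intron one shares 187, with 71 other genes. Those of the other 5 ATPases are shared with 0 to 2 other genes each. By share of words Psmc2 had 3.72%, against 14.1% for Psmc1, 4.37% for Psmc3 and 0.03% or less for Psmc4, Psmc5 and Psmc6. Psmd11, Psmd5, Psmd9 and Psmd3 shared words with 617, 575, 254 and 96 other genes. Their fold changes over all filtered genes were below 0. On the background-limited scale Psmd11, alone of them in that set, had 0.39 without passing. In set-scaled CPM HFD+MGIG lay above HFD without overlap for Psmd11, Psmd5 and Psmd9, and below it for Psmd3. Psmb11 shared words with 594 other genes, but it lay below the background bound in every library. The part of shared words in these fold changes was not tested. Among the genes that share words with Psmc2-202, the receptor gene Olfr45 stood at 1.97, 6.79 and 2.98 CPM in HFD, against 94.7, 193 and 107 CPM in HFD+MGIG. Gm47056 stood at 11.6, 75.8 and 26.7 CPM in HFD, against 515, 1103 and 582 CPM in HFD+MGIG. Gin1 stood at 7.17, 11.4 and 6.09 CPM in HFD, against 24.3, 54.6 and 36.9 CPM in HFD+MGIG. Vmn2r115 stood at 6.33, 24.6 and 9.88 CPM in HFD, against 290.4, 780.3 and 336 CPM in HFD+MGIG. These 4 share the most words with it: 46 for Gm47056 and 38 for Gin1, both on the opposite strand, 39 for Vmn2r115 and 26 for Olfr45. All 4 were highest in HFD+MGIG 2, as Psmc2 was. Next in order, Olfr1204 (25 words) was also higher in HFD+MGIG, while the groups overlapped for Mpzl2 (15 words). Levels of the remaining genes that share words were not compared, and whether reads of the shared stretches were counted for Psmc2 was not tested. The table gives a single value per gene, so reads of the coding and the retained-intron transcript cannot be told apart.

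**Figure D4:**
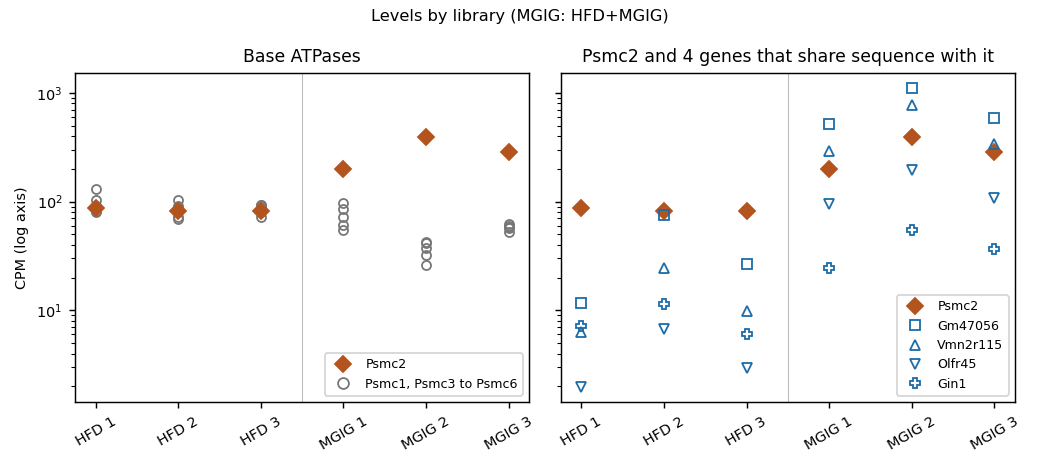
Levels by library in CPM on a log axis: Psmc2 with the other 5 base ATPases (left), and Psmc2 with 4 genes whose transcripts share 50-base words with it (right). Psmc2 lies among the other ATPases in HFD, at 82.5 to 86.6 CPM, and above all of them in HFD+MGIG, where the 4 partners are also higher.

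The window before the start of Psmc2 holds an ETS site, CCGGAAG on either strand, and a CCAAT box, both in capitals (RefSeq GRCm38.p6, chr5:21785180-21785259, + strand):
Psmc2 promoter: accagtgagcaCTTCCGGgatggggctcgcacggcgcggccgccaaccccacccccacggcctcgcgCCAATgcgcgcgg

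Of the base subunits that are not ATPases the scaffolds Psmd1 and Psmd2, of which Psmd2 docks ubiquitin-binding shuttles, fell over all filtered genes. Psmd2 (ENSMUSG00000006998, mm10 chr16:20651652-20663414, + strand) stood at 209, 188 and 187 CPM in HFD, against 134.9, 49.7 and 100.7 CPM in HFD+MGIG, with no overlap and HFD+MGIG 2 lowest. Its -1.29 (SE 0.456, adjusted p = 0.0275 by edgeR) was the largest fall of the family, and the call was lost without HFD 1, HFD 3 or HFD+MGIG 3 (adjusted p = 0.0511, 0.0637 and 0.0967). It was also lowest of the 34 on the background-limited scale, with -0.39 (SE 0.154, unadjusted p = 0.0314, adjusted p = 0.147 by edgeR). Set-scaled CPM was 318, 289 and 287 in HFD, against 265, 187 and 223 in HFD+MGIG, and Psmd2 was the 1 gene of the 34 that lay lower without overlap, where 7 lay higher without overlap. Of all background-limited genes 17% lay lower and 16.8% higher in that way. Psmd2 over the summed core genes was 0.14, 0.144 and 0.154 in HFD, against 0.118, 0.0668 and 0.0971 in HFD+MGIG, also a ratio chosen after its values were seen. Of the 50-base words of Psmd2 17.8% also occur in other genes, chiefly a pseudogene.

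Psmd1 stood at 119, 130.4 and 132 CPM in HFD, against 86.0, 52.8 and 84.0 CPM in HFD+MGIG, and fell by 1.06 (SE 0.375, adjusted p = 0.0275 by edgeR). The call was lost without HFD 2, HFD 3 or HFD+MGIG 3 (adjusted p from 0.0814 to 0.0832), and on the background-limited scale it had -0.08. The third gene, Psmd4, a receptor for ubiquitin chains, had -0.73 and 0.20 and passed on neither scale. The window before the start of Psmd2, shown as the gene with the largest fall, holds an ETS site in capitals (RefSeq GRCm38.p6, chr16:20651592-20651641, + strand):
Psmd2 promoter: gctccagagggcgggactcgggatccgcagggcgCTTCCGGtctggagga

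In the lid 4 of 8 genes fell over all filtered genes: Psmd3, Psmd6, Psmd13 and Psmd14. Psmd14, the enzyme that cuts the ubiquitin chain off the substrate, stood at 78.1, 78.8 and 72.6 CPM in HFD, against 46.5, 42.4 and 44.2 CPM in HFD+MGIG. All HFD+MGIG libraries lay below all HFD libraries. It fell by 1.10 (SE 0.302, adjusted p = 0.0077 by edgeR), a call lost without HFD+MGIG 3 (adjusted p = 0.0509), and on the background-limited scale it had -0.06 (SE 0.209), with HFD+MGIG 2 highest of the 6 libraries. Psmd3, a scaffold of the lid, stood at 67.2, 67.0 and 68.4 CPM in HFD, against 41.0, 22.6 and 43.8 CPM in HFD+MGIG. It fell by 1.19 (SE 0.352, adjusted p = 0.0116 by edgeR) and kept the call without any single library, though it was not among the background-limited genes. In HFD+MGIG 2 its level lay below the background bound of 46.7 CPM. Psmd11, another scaffold, had -0.63 over all filtered genes and the largest value of the lid on the other scale, 0.39 (SE 0.171, adjusted p = 0.2 by edgeR). It did not pass on either, and DESeq2 and limma voom called 8 of 8 lid genes lower over all filtered genes.

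The 3 base chaperones, which bind ATPases before the base is complete and leave the finished particle, gave 0 calls by edgeR over all filtered genes, with 0 of 3 at an unadjusted p under 0.05. Limma voom called Psmd5 (-0.55, adjusted p = 0.008) and Psmd10 (-0.54, adjusted p = 0.023) lower. Psmd5 stood at 55.6, 49.7 and 49.9 CPM in HFD, against 43.4, 51.0 and 41.6 CPM in HFD+MGIG, overlapping. Psmd10, known as gankyrin, stood at 23.1, 22.5 and 23.2 CPM and at 23.9, 10.4 and 18.8 CPM. DESeq2 called 0 of the 3, and edgeR gave fold changes of -0.30 to -0.63. On the background-limited scale Psmd10, alone of them in that set, had 0.29 (SE 0.177, adjusted p = 0.344 by edgeR) and did not pass. Its set-scaled CPM was 35.1, 34.6 and 35.6 in HFD, against 46.9, 39.1 and 41.5 in HFD+MGIG. The groups lay higher without overlap there, as for 16.8% of the set, and so did those of Psmd5 and Psmd9, which lie outside the set.

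Of the 5 activators Psme1, Psme3 and Psme4 fell over all filtered genes. Psme1 stood at 113, 85.3 and 87.2 CPM in HFD, against 73.0, 58.7 and 59.5 CPM in HFD+MGIG, with -0.87 (SE 0.327, adjusted p = 0.035 by edgeR). Psme2, its partner in PA28, stood at 87.9, 66.3 and 76.7 CPM and at 63.6, 60.5 and 64.0 CPM, with -0.60 (SE 0.304, adjusted p = 0.101 by edgeR). HFD+MGIG lay below HFD in both genes. Psme1 over Psme2 was 1.29, 1.29 and 1.14 in HFD, against 1.15, 0.970 and 0.930 in HFD+MGIG, where HFD 3 and HFD+MGIG 1 overlapped (2-sided exact permutation p = 0.2, 0.8 adjusted over the 4 ratios). The count of Psme2 may hold reads of Psme2b, a near copy: 28.3% of the 50-base words of Psme2 and 69.3% of those of Psme2b occur in other genes.

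Psme3, the nuclear activator PA28 gamma, stood at 73.2, 79.4 and 91.8 CPM in HFD, against 57.4, 30.3 and 51.4 CPM in HFD+MGIG. It fell by 1.09 (SE 0.367, adjusted p = 0.0219 by edgeR), and the call was lost without HFD 3 or HFD+MGIG 3 (0.0748 and 0.0711). Psme4, the activator PA200, stood at 37.2, 40.1 and 38.4 CPM in HFD, against 33.0, 19.0 and 27.9 CPM in HFD+MGIG, and fell by 0.81 (SE 0.319, adjusted p = 0.0425 by edgeR). It was not among the background-limited genes, and each HFD+MGIG level lay below the bound set by silent genes (43.8, 78.9 and 38.4 CPM). The calls of Psme1 and Psme4 were lost without HFD 1, 2 or 3 or HFD+MGIG 3 (adjusted p from 0.0604 to 0.157). On the background-limited scale Psme1, Psme2 and Psme3 had 0.15, 0.44 and -0.14, and none passed.

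The tissue-restricted genes were low in all libraries. Psmb11 held 5, 3 and 1 counts in HFD, against 15, 29 and 35 counts in HFD+MGIG, and passed the filter through the second group. Its level stayed below the bound set by silent genes in every library, for instance 3.61 CPM with the bound at 25.1 CPM in HFD+MGIG 1, so no fold change is given. Psma8 stood at 2.21, 2.56 and 1.86 CPM and at 2.41, 4.52 and 3.06 CPM, overlapping, with 0.22 (SE 0.578). Psmc3ip had 0.51 (SE 0.683), and neither passed.

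Base and lid genes over core genes, summed, gave 1.12, 1.15 and 1.25 in HFD, against 1.19, 1.33 and 1.21 in HFD+MGIG, overlapping. Without Psmc2, Psma8 and Psmb11, left out after their values were seen, the ratio was 1.07, 1.08 and 1.18 in HFD, against 1.02, 0.840 and 0.949 in HFD+MGIG, with no overlap and no test. Near copies and overlaps touch several of these genes. Besides Psme2b, shared words made up 54.1% of those of Psmb5, 50% of Psma5, 24.9% of Psmd9, 17.8% of Psmb3 and 15.4% of Psma3. Exons of Psmb7 overlap 405 bases of Nek6 on the other strand, those of Psmc3 215 bases of Slc39a13 and those of Psmd13 342 bases of Sirt3, and the counting is not stated to use strand. Gm3375, a pseudogene that holds 46.8% of the words of Psmb5, stood at 0 CPM in all HFD libraries, against 0, 2.26 and 2.24 CPM in HFD+MGIG. The genes Psmb5-ps, Psmb6-ps, Psmb6-ps2 and Psmb7-ps2 held 0 to 0.208 CPM in HFD, against 0.241 to 8.58 CPM in HFD+MGIG.

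The other genes of the pathway were read from a list of 36: assembly factors of the core, regulatory particle genes with other names, associated regulators, ubiquitin and its activating enzymes, shuttles with the p97 segregase, and genes of transcriptional control, with Psmb8 and Psmb9. Over all filtered genes 15 fell and 0 rose by edgeR, with a median of -0.84, and for 17 the unadjusted p was under 0.05. The shares over all filtered genes were 17.8% lower and 42.9% higher, and among the background-limited genes of the same fit, with a median of -0.91, 43% were called lower, near the share of the list. DESeq2 and limma voom each called 1 higher. Shuttles and p97 gave 7 of the 15, among them Ubqln4 (27.4, 28.5 and 30.2 CPM in HFD, against 10.6, 8.58 and 13.2 CPM in HFD+MGIG) with -1.69 (SE 0.310, adjusted p = 0.00058 by edgeR). Nploc4, a cofactor of p97, stood at 62.9, 67.7 and 66.7 CPM and at 33.5, 17.6 and 37.7 CPM, with -1.42 (SE 0.362, adjusted p = 0.0049 by edgeR). Both groups of each gene were apart, and both calls held without any single library. Neither gene was among the background-limited ones. Ubqln4 lay below the background bound in every HFD+MGIG library (bound 21.7, 39.0 and 19.0 CPM), and Nploc4 in HFD+MGIG 2 (bound 44.9 CPM).

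On the background-limited scale 2 of 16 pathway genes fell by edgeR, Nfe2l1 and Uba1, and 0 rose (6.26% and 4.49% of the set). DESeq2 called 3 lower and 2 higher (8.76% and 7.22% of the set), and limma voom also 3 and 2 (9.33% and 8.49%). By both tools 1 of those called higher was Pomp, and the other was among ubiquitin and its activating enzymes. Nfe2l1 (ENSMUSG00000038615, mm10 chr11:96817414-96829968, - strand) is the transcription factor that is activated when proteasomes are overloaded, raises the subunit genes together and is known for this role in brown fat. Its set-scaled CPM was 234, 238 and 262 in HFD, against 142, 96.9 and 132 in HFD+MGIG, with no overlap. It had -0.96 (SE 0.163, adjusted p = 0.012 by edgeR) there and -1.86 (SE 0.454, adjusted p = 0.0038 by edgeR) over all filtered genes, and neither call was lost without a single library. With the 90th percentile of the background subtracted the first had -1.81 and an adjusted p of 0.559. In HFD+MGIG 2 the level of Nfe2l1 was 25.7 CPM, below the background bound of 51.2 CPM.

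Uba1 (ENSMUSG00000001924, mm10 chrX:20658326-20683179, + strand), the main enzyme that activates ubiquitin, stood at 233, 216 and 209 set-scaled CPM in HFD, against 155, 96.9 and 136 in HFD+MGIG, again apart. It had -0.74 (SE 0.174, adjusted p = 0.0316 by edgeR) there and -1.63 (SE 0.455, adjusted p = 0.0085 by edgeR) over all filtered genes, and the first call was lost without HFD 1, 2 or 3 or HFD+MGIG 3 (adjusted p from 0.0758 to 0.105). The level of Uba1 in HFD+MGIG 2 was 25.7 CPM, below the background bound of 45.3 CPM. Pomp, the maturation factor of the core, lay on the other side with 127, 109.5 and 92.6 in HFD, against 132, 315 and 193.5 in HFD+MGIG, and its 0.92 (SE 0.290) did not pass (adjusted p = 0.0864 by edgeR), whereas DESeq2 and limma voom both called it higher. The median of the 16 was -0.09 and turned to above 0 when background was subtracted.

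**Figure D5:**
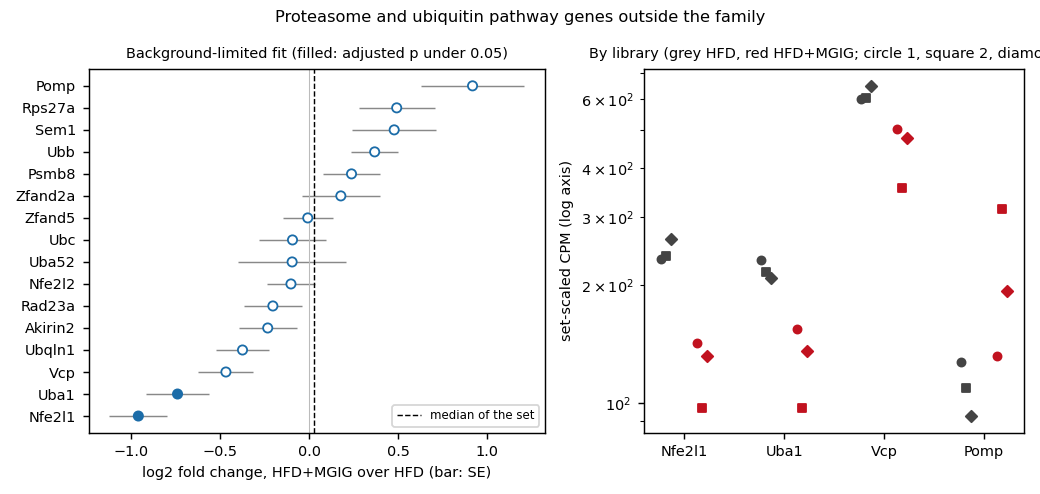
Left, log2 fold changes with standard errors of the 16 pathway genes on the background-limited scale; right, set-scaled CPM of 4 of them in each library on a log axis. Nfe2l1 (-0.96) and Uba1 (-0.74) are the filled points, and their HFD+MGIG libraries lie below all HFD libraries.

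Promoters were taken from RefSeq for 36 of the 43 genes, as 39 windows of 300 bases from 250 before to 50 after a start, and searched on both strands for 6 motifs. Psma8, Psmb1, Psmb2, Psmb7, Psmc3, Psmd3 and Psmd7 were not matched in the table used here. The antioxidant core TGACNNNGC was in 15.4% of the windows and in 13.1% of 20120 windows of protein-coding genes, and CCAAT in 35.9% and 37.8%. The ETS site CCGGAAG was in 35.9%, for 13 genes, and in 11.9% of all windows. The 13 were Psma6, Psmc1, Psmc2, Psmc6, Psmd2, Psmd4, Psmd6, Psmd11, Psmd12, Psmd13, Psme3, Psme4 and Psmc3ip, which is not a subunit. The NRF1 palindrome (GCGCA, any base, GCGC) was in 15.4% against 6.6%, the interferon core (GAAA, any 2 bases, GAAA) in 10.3% against 3.4% and the E-box CACGTG in 10.3% against 8.0%. No matches of different motifs overlapped in the windows of these genes. These shares describe letters in the windows and were not tested against the fold changes.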

How the data were processed

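RNA from F4/80+ CD11b+ adipose tissue macrophages was sequenced after amplification with a SMART-Seq v4 kit, per the labels' protocols. Estimated counts for each gene were deposited by the authors in a single table, and 33.3% to 41.8% of the detected values of a library were fractional. Per the submitters' processing notes, fastp, HISAT2, StringTie and build mm10 were used. Their versions, the counting program and the use of strand are not stated (not given in the sources used here), and 0 value columns were left unused. GENCODE M21, for the same build, matched 51884 of the 57180 IDs and gave gene types, lengths and positions.

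Values were rounded to whole counts before testing. Groups were compared by the quasi-likelihood test of edgeR 4.0.16 (R 4.3.3, TMM, robust, filterByExpr by group, group as the only term) over all genes of each fit, with p adjusted by Benjamini and Hochberg and called under 0.05; standard errors were the fold change over the root of its F. Errors with ± are SDs over 3 libraries. Background-limited genes had at least 2 exons, coded for protein and lay outside the silent families. Alternatives were DESeq2 1.42.0, limma voom (limma 3.58.1) with quality weights, other scalings, filters and bounds, subtracted background, trends removed, a block for replicate number, and leaving out each library.

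The fits were tested on simulated data. Both groups were drawn from the HFD means at the depths of the 6 libraries, with changes set in some genes. No background that differed between the groups was put in. At a log2 change of 1 the fit over all filtered genes recovered 3.2% and at 2 it recovered 71.9% of changed genes (15307 genes simulated). The fit over the 2604 background-limited genes recovered 90% and 100%, with 18 false among 208 calls. How much would be recovered under the background of the HFD+MGIG libraries was not tested, so these shares do not carry over to them.

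The proteasome genes, the pathway list, the marker lists and the tests were chosen with earlier results of these data known. Named were the catalytic subunits and Psmb10, in each role the 2 genes with the smallest p over all filtered genes and the largest absolute change on the other scale, every gene past the threshold there, Psme1 to Psme4, Psma8, Psmb11, and of the pathway list those past it, the 3 smallest p, Psmb8 and Psmb9. Psmc1, Psmc4, Psmc5, Psmc6, Psmd4, Psmd6, Psmd13 and Pomp were named after their values were seen, as were the count ratios, the shared words and the promoter windows. A shared stretch of Psmc2-202 is not reported here.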

Additional observations from a re-analysis of the deposited data

How the results depend on the processing

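Over all filtered genes the proteasome genes called lower (16 of 43) numbered 6 with library totals, 28 with DESeq2, 37 with limma voom, 2 of 40 with at least 5 CPM in 3 libraries, 2 with protein-coding genes alone and 1 to 31 with each library left out. Those called higher (2) were 1 with the 5 CPM minimum and 1 to 2 with a library left out. The median (-0.81) was -0.45 with the 5 CPM minimum and -0.41 with protein-coding genes alone. Pathway genes called lower (15) were 24 with limma voom, 7 with the 5 CPM minimum, 7 with protein-coding genes alone and 8 to 20 with a library left out; those called higher (0) were 2 with library totals, 1 with DESeq2, 1 with limma voom, 2 with the 5 CPM minimum and 2 with protein-coding genes alone, and their median (-0.84) was -0.44 and -0.43 in the last 2 settings.

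On the background-limited scale the genes called higher (1) were 0 with the 90th percentile of the background subtracted and 0 to 1 with a library left out. Pathway genes called lower (2) were 0 with a bound of at most 0.1 (6 genes tested), 1 with the median and 0 with the 90th percentile of the background subtracted, 1 with trends removed and 1 to 2 with a library left out. Those called higher (0) were 2 with DESeq2, 2 with limma voom, 1 with the median background subtracted and 0 to 2 with a library left out. The ratio of shares (0.756) was 0.964 with protein-coding counts as the total and 1.17 with background-limited counts, both for the 43 genes, 9 of which lie outside that total, and for the 34 within it (chosen after seeing the data). The cause of these changes was not tested.

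Signs turned on the background-limited scale, none of them with a call. With trends removed Psma5 had -0.17, Psma6 -0.24, Psmb5 -0.0038, Psmb6 -0.0884 and Psmd10 -0.0272. With background subtracted Psmb7 had -0.0058 (median) and -0.92 (90th percentile), and at the 90th percentile Psmb10 had -0.39, Psmd10 -0.41 and Psmd11 -0.39. Psmb10 had -0.0217 with set totals. With a library left out Psmb10 ranged from -0.0164 to 0.20, Psmc3 from -0.23 to 0.0096, Psmd14 from -0.31 to 0.0877 and Psme1 from -0.0858 to 0.29. Of 706 values of 29 named genes 592 kept direction and call.

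Same-numbered libraries of the groups correlated by 0.048, 0.260 and 0.0792 over all filtered genes and by -0.138, 0.117 and 0.204 on the other scale, and not every library correlated best with its own number, so the numbers were not taken as pairs. With the replicate number as a block 15 genes were lower and 2 higher (median -0.90) over all filtered genes, and 0 and 1 (median 0.13) on the other scale. Depth limits HFD+MGIG most, where 1 count was worth 0.204 to 0.452 CPM against 0.0597 to 0.0693 CPM in HFD.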
